A study of Caenorhabditis elegans with 12 samples.

Results

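The vitellogenin genes of Caenorhabditis elegans encode the yolk proteins, and 6 of them, vit-1 to vit-6, are described here among 46934 WormBase gene identifiers in the count table. The members were taken by symbol, and each matched 1 identifier. The libraries are from whole larvae in L1 arrest, in which worms that hatch without food stop developing as first-stage larvae. Eggs freed with hypochlorite were left in M9 buffer for 48 h, and total RNA was taken with Trizol after bead beating for Illumina sequencing. N2 is the wild type, and each of the other strains has a changed flp-11: the allele is syb1445 in HBR2340 and syb2193 in PHX2193. Each strain has 4 libraries, called A to D. What syb1445 and syb2193 alter in flp-11 is not stated in the labels, nor how many lines stand behind a strain. The gene flp-11 encodes neuropeptides of the sleep-active neuron RIS. The comparisons ask how RNA of arrested larvae differs between each strain and N2, and between both strains.

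Vitellogenins are large lipid-binding proteins related to the vertebrate apolipoprotein B. The intestine of the adult hermaphrodite makes them in great amounts and secretes them into the body cavity, and oocytes take them up through the receptor RME-2. Larvae and males are not known for high vitellogenin expression, and the newly hatched larva carries yolk protein that its mother made. The genes vit-1 and vit-2 are close copies of each other, as are vit-3, vit-4 and vit-5, while vit-6 is a more distant member whose product is cut into smaller yolk proteins.

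Of the 6 genes, 5 lie on the X chromosome and vit-6 lies on chromosome IV (WBcel235 coordinates). The genes vit-3 (X, 3567355 to 3572549) and vit-4 (X, 3558769 to 3563965) are neighbours on the minus strand, 3389 bp apart. The others are on the plus strand: vit-5 (X, 3403471 to 3408603), vit-2 (X, 5101042 to 5106169), vit-1 (X, 7727889 to 7733168) and vit-6 (IV, 8261157 to 8266459). All are annotated as protein coding. The coding length is 4809 bp in each of vit-3, vit-4 and vit-5, 4839 bp in vit-2, 4848 bp in vit-1 and 4953 bp in vit-6. The end of vit-2 overlaps C42D8.9 on the other strand, where C42D8.9 had 2 to 13 counts per library. Non-coding RNA genes overlap vit-3 (T27A10.8, 0 counts in every library) and vit-4 (F59D8.3, at most 1 count in any library). The sources used here do not give the authors' treatment of strand or of reads that match several places, so the split of reads among close copies is uncertain.

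Each library held 23068345 to 34832403 gene counts. Levels are CPM (counts scaled to library size with TMM factors), and in these libraries 3 counts make 0.0822 to 0.170 CPM, called the floor here. The test covered 15908 genes that passed a filter on low counts. The library N2 B stood apart from the other 11 on the second principal component, at −98.4 where the others lay between −23.3 and 37.2. Values without N2 B are given beside many of the results that it moves. RNA of oocyte, eggshell, early embryo and germ line genes was high in N2 D and PHX2193 D, and these values stand beside the vit-6 results.

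Vitellogenin RNA was scarce in all 12 libraries. The 6 genes together had 53 to 225 counts per library in N2, 63 to 79 in HBR2340 and 249 to 549 in PHX2193. As CPM of all counts, with no TMM factor, that was 8.45, 2.15, 6.26 and 8.83 in N2 A to D. It was 2.49, 2.91, 2.20 and 2.53 in HBR2340 A to D. It was 10.4, 14.3, 11.2 and 19.3 in PHX2193 A to D. Every PHX2193 library was above every N2 and HBR2340 library, and N2 A, C and D were above every HBR2340 library. N2 B lay just below the HBR2340 libraries here, and within their range on the TMM scale (3.01 CPM, where HBR2340 had 2.22 to 3.08).

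Only vit-2, vit-3 and vit-6 had enough counts for the test. Against N2, vit-3 and vit-6 were lower in HBR2340, and neither vit-2, vit-3 nor vit-6 passed in PHX2193. Between both strains, vit-3 and vit-6 were higher in PHX2193. All comparisons used the edgeR quasi-likelihood test with Benjamini-Hochberg adjustment over all genes tested, and a gene is called at an adjusted p under 0.05. That adjusted p is given below as the edgeR adjusted p. In whole larvae, fewer cells of a type and less RNA per cell cannot be told apart.

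**Figure D1:**
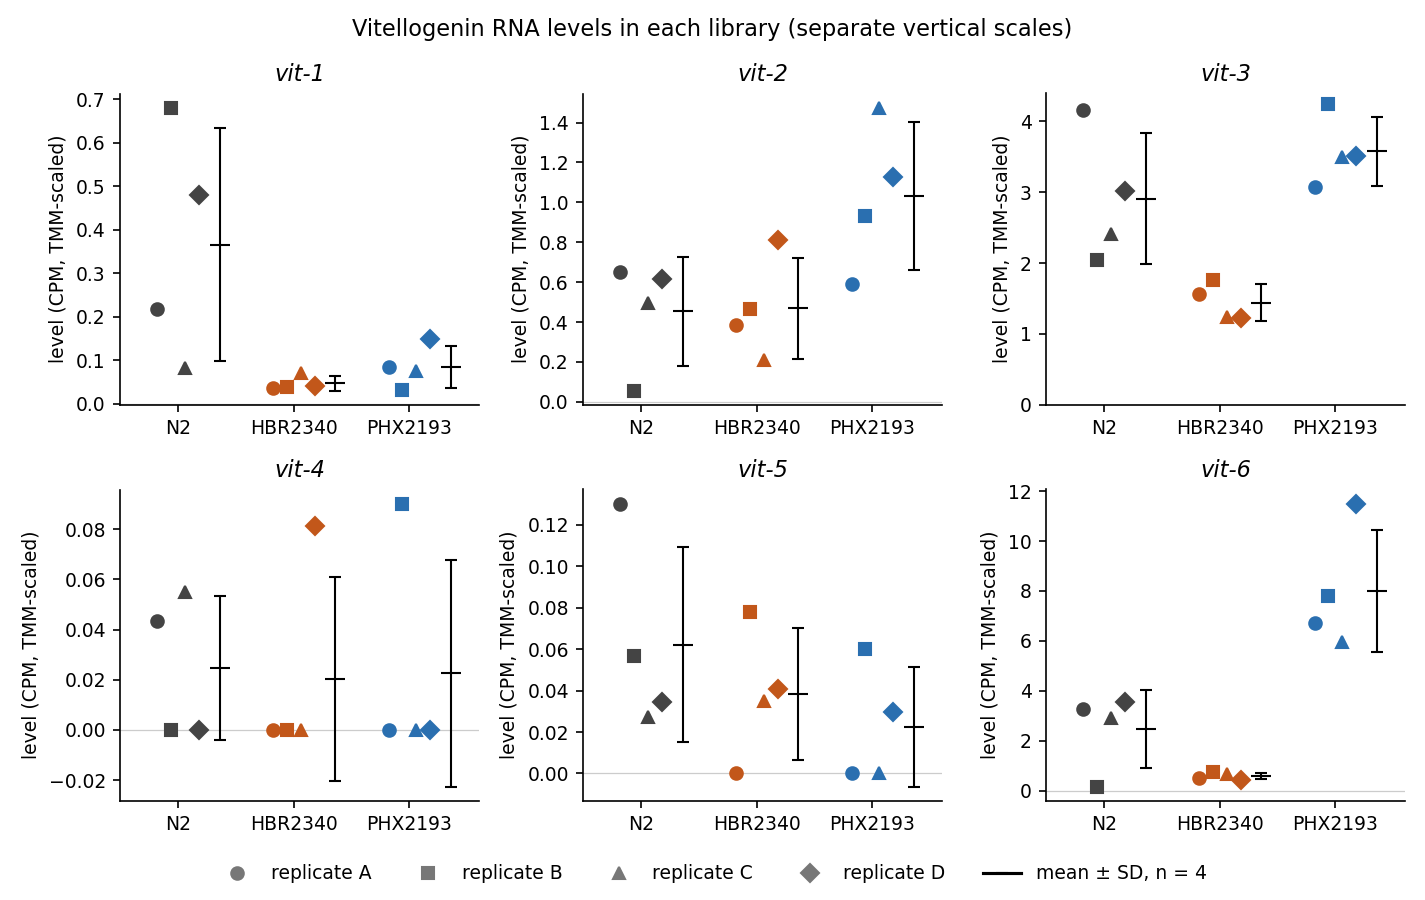
RNA level of each vitellogenin gene (CPM, TMM-scaled; a separate linear scale per gene) in the 12 libraries, with 1 point per library and the mean ± SD of 4 libraries beside each strain. PHX2193 had the highest vit-6 levels (5.97 to 11.5 CPM) and HBR2340 stayed between 0.446 and 0.741 CPM, while N2 B (0.170 CPM) lay far below the other N2 libraries.

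The gene vit-6 (WBGene00006930) encodes the precursor of the smaller yolk proteins and changed the most of the members tested. N2 A to D had 75, 3, 106 and 104 counts, or 3.25, 0.170, 2.90 and 3.57 CPM. HBR2340 A to D had 15, 19, 19 and 11 counts, or 0.522, 0.741, 0.668 and 0.446 CPM. PHX2193 A to D had 160, 259, 162 and 387 counts, or 6.73, 7.79, 5.97 and 11.5 CPM. All PHX2193 libraries lay above all others. HBR2340 lay below N2 A, C and D but above N2 B, so N2 and HBR2340 overlap through N2 B alone.

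The mean vit-6 level (CPM; SD, n = 4 each) was 2.47 ± 1.56 for N2, 0.594 ± 0.134 for HBR2340 and 7.996 ± 2.45 for PHX2193. PHX2193 was higher than HBR2340 by a log2 fold change of 3.74 ± 0.59 (SE; 13.4-fold; edgeR adjusted p = 0.000852). This call held under all 18 other settings, with log2 fold changes from 3.51 to 3.88 and adjusted p of at most 0.00506. HBR2340 was lower than N2 by a log2 fold change of −2.07 ± 0.58 (edgeR adjusted p = 0.0485), close to the threshold. That call ended when any library other than N2 B was left out (edgeR adjusted p of 0.0549 to 0.133). It also ended with only the 8 libraries (0.130), with no filter on low counts (0.111) and with a term for the replicate letter (0.113). It became firmer without N2 B (−2.45 ± 0.26, edgeR adjusted p = 7.87e-05).

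PHX2193 against N2 gave a vit-6 log2 fold change of 1.67 ± 0.53 that did not pass (edgeR adjusted p = 0.215), although the 4 libraries of each strain did not overlap. Without N2 B the remaining N2 libraries had 3.24 ± 0.33 CPM (SD, n = 3), and the log2 fold change of 1.30 ± 0.24 passed (edgeR adjusted p = 0.0210). So without N2 B the 3 strains were fully apart for vit-6, in the order PHX2193, N2, HBR2340. Among all tested genes, calls also rose without N2 B, from 0.365% to 1.4% in PHX2193 against N2. In HBR2340 against N2 they rose from 7.37% to 17.7%. The comparisons against N2 share the N2 libraries.

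Spread between libraries of a strain was set against counting error. For vit-6 the chi-square per degree of freedom over 4 libraries was 0.780 in HBR2340, where the libraries differed no more than counts of this size do. It was 17.7 in N2, where N2 B stands out, and 22.6 in PHX2193, where PHX2193 D stands out. For vit-3 the values were 6.79 for N2, 1.26 for HBR2340 and 1.92 for PHX2193.

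The gene vit-3 (WBGene00006927) is the member of its close trio that held nearly all of the trio's counts. N2 A to D had 96, 36, 88 and 88 counts, or 4.17, 2.04, 2.41 and 3.02 CPM. HBR2340 A to D had 45, 45, 35 and 30 counts, or 1.57, 1.75, 1.23 and 1.22 CPM. PHX2193 A to D had 73, 141, 95 and 118 counts, or 3.07, 4.24, 3.50 and 3.51 CPM. Every HBR2340 library was below every library of N2 and PHX2193, N2 B included, while N2 and PHX2193 overlapped.

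The mean vit-3 level was 2.91 ± 0.93 CPM for N2, 1.44 ± 0.26 for HBR2340 and 3.58 ± 0.49 for PHX2193 (SD, n = 4 each). HBR2340 was lower than N2 by a log2 fold change of −1.01 ± 0.25 (edgeR adjusted p = 0.0296). The call ended without N2 A, N2 D, HBR2340 A, HBR2340 C or HBR2340 D (edgeR adjusted p of 0.0543 to 0.0891). It also ended with only the 8 libraries compared (0.0876) and with a term for the replicate letter (0.0558). It held without N2 B (−1.16 ± 0.23, edgeR adjusted p = 0.00445). PHX2193 was higher than HBR2340 by 1.31 ± 0.25 (edgeR adjusted p = 0.00293), and this call held under all 18 other settings. PHX2193 against N2 gave 0.30 ± 0.24, which did not pass (edgeR adjusted p = 0.702, and 0.878 without N2 B).

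The gene vit-2 (WBGene00006926), which encodes the yolk protein most often tagged to follow yolk in living worms, had few counts. N2 A to D had 15, 1, 18 and 18 counts, or 0.651, 0.0567, 0.493 and 0.618 CPM. HBR2340 A to D had 11, 12, 6 and 20 counts, or 0.383, 0.468, 0.211 and 0.811 CPM. PHX2193 A to D had 14, 31, 40 and 38 counts, or 0.589, 0.932, 1.47 and 1.13 CPM. PHX2193 B, C and D were above all libraries of the other strains, and PHX2193 A lay among them. The count of 1 in N2 B was under the floor.

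No comparison of vit-2 passed. The log2 fold change was −0.01 ± 0.53 in HBR2340 against N2, 1.14 ± 0.53 in PHX2193 against N2 and 1.15 ± 0.53 in PHX2193 against HBR2340. The edgeR adjusted p was 0.993, 0.431 and 0.157 in that order. Without N2 B, vit-2 passed between both strains (1.16 ± 0.40, edgeR adjusted p = 0.0384), as it did with only the 8 libraries compared (1.17 ± 0.41, edgeR adjusted p = 0.0481).

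**Figure D2:**
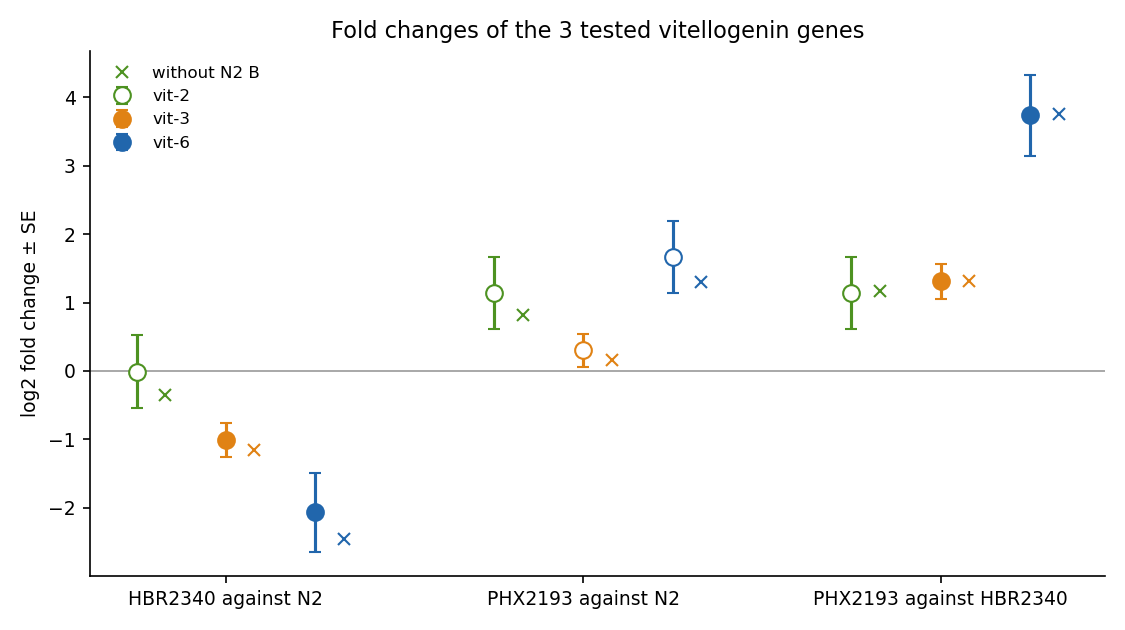
Log2 fold change ± SE (edgeR) of vit-2, vit-3 and vit-6 in the 3 comparisons, with 4 libraries per strain. Filled circles have an adjusted p under 0.05, open circles do not, and crosses give the value without N2 B. The values of vit-6 span −2.07 to 3.74, the widest of the 3 genes.

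Of the 3 tested members, 2 were called in HBR2340 against N2, both lower, where 7.37% of all tested genes were called (3.34% higher and 4.03% lower). In PHX2193 against N2, 0 were called, where 0.365% of all tested genes were (0.163% higher and 0.201% lower). That count of 0 compares with 1 member at an unadjusted p under 0.05 in edgeR, as held for 1845 of all 15908 genes tested. DESeq2 called 1, vit-6 (DESeq2 adjusted p = 0.0395), and it also called more of all genes than edgeR did. In PHX2193 against HBR2340, 2 were called, both higher, where 19.5% of all tested genes were called (10.1% higher and 9.39% lower).

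Among the tested members, libraries of both strains did not overlap for vit-3 in HBR2340 against N2, as held for 13.8% of all tested genes (7.52% higher and 6.32% lower). In PHX2193 against N2 this was so for vit-6 and for 6.03% of all tested genes (3.31% higher and 2.73% lower). In PHX2193 against HBR2340 it was so for vit-3 and vit-6 and for 35.5% of all tested genes (17.6% higher and 17.9% lower). The median log2 fold change of all tested genes was −0.04, −0.01 and 0.02 in these 3 comparisons.

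The genes vit-1, vit-4 and vit-5 did not pass the filter on low counts, so they have counts but no call. The gene vit-1 (WBGene00006925) is the close copy of vit-2. N2 A to D had 5, 12, 3 and 14 counts of vit-1, HBR2340 A to D had 1, 1, 2 and 1, and PHX2193 A to D had 2, 1, 2 and 5. Every HBR2340 library was thus below the floor and below every N2 library, while N2 A, B and D were above the floor. That separation rests on 3 counts in N2 C against 2 in HBR2340 C, both at or under the floor. HBR2340 libraries were likewise all below those of N2 for 6.32% of all tested genes. N2 B had the second most vit-1 counts and, at 0.681 CPM, the highest scaled level. In that same library vit-2, vit-3 and vit-6 were at their lowest for N2.

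Summed over 4 libraries, vit-1 had 34 counts in N2 (95% exact Poisson interval 23.6 to 47.5), 5 in HBR2340 (1.62 to 11.7) and 10 in PHX2193 (4.80 to 18.4). Without N2 B, N2 had 22 counts in 3 libraries (13.8 to 33.3). The intervals cover counting error only, and the N2 libraries differed beyond it (chi-square per degree of freedom 5.58 over 4 libraries). When no filter on low counts was used, vit-1 in HBR2340 against N2 gave an edgeR adjusted p of 0.0450, and DESeq2 gave an adjusted p of 0.0248. Both fits include N2 B, the library with the highest vit-1 level. PHX2193 against N2 without the filter gave an edgeR adjusted p of 0.419.

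The gene vit-4 (WBGene00006928) had 0 to 2 counts per library in N2 and HBR2340 and 0 to 3 in PHX2193, and no library was above the floor. The gene vit-5 (WBGene00006929) had 1 to 3 counts per library in N2 and 0 to 2 in HBR2340 and PHX2193, again never above the floor. At these depths no difference between strains was detectable for vit-4 or vit-5. Their close copy vit-3 had 30 to 141 counts in the same libraries.

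Close copies were also summed. The trio of vit-3, vit-4 and vit-5 had 4.34, 2.10, 2.49 and 3.05 CPM in N2 A to D, 1.57, 1.83, 1.27 and 1.34 in HBR2340 A to D, and 3.07, 4.39, 3.50 and 3.54 in PHX2193 A to D. HBR2340 was again below all other libraries. The pair of vit-1 and vit-2 had 0.820 ± 0.221 CPM for N2, 0.514 ± 0.243 for HBR2340 and 1.12 ± 0.38 for PHX2193 (SD, n = 4 each), and the libraries of all 3 strains overlapped. The N2 and HBR2340 means of vit-2 alone were 0.455 ± 0.274 and 0.468 ± 0.252 CPM, so the distance between the summed means comes with the vit-1 counts of N2.

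To compare the members with each other, levels were divided by the length of the longest transcript (CPM per kb, written RPKM). In N2 the order was vit-3 (0.591 ± 0.189 RPKM, SD, n = 4), vit-6 (0.489 ± 0.308), vit-2 (0.0921 ± 0.0555), vit-1 (0.0717 ± 0.0526), vit-5 (0.0128) and vit-4 (0.00497). The spread of vit-3 and vit-6 overlapped, as did that of vit-2 and vit-1. Without N2 B the order was the same, with vit-3 (0.650 ± 0.181 RPKM, SD, n = 3) and vit-6 (0.641 ± 0.066) nearly level, followed by vit-2 (0.119 ± 0.017) and vit-1 (0.0511 ± 0.0398). In HBR2340 vit-3 led (0.293 ± 0.053 RPKM), followed by vit-6 (0.118 ± 0.027) and vit-2 (0.0949 ± 0.0512), and vit-6 and vit-2 overlapped. In PHX2193 vit-6 led (1.58 ± 0.48 RPKM), followed by vit-3 (0.727 ± 0.099) and vit-2 (0.209 ± 0.075), with no overlap of these 3 in RPKM. The leading member thus was vit-3 in HBR2340 and vit-6 in PHX2193.

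The ratio of vit-6 to vit-3 counts within a library does not depend on how libraries are scaled. It was 0.781, 0.0833, 1.205 and 1.18 in N2 A to D. It was 0.333, 0.422, 0.543 and 0.367 in HBR2340 A to D and 2.19, 1.84, 1.71 and 3.28 in PHX2193 A to D. PHX2193 lay above all other libraries. HBR2340 lay below N2 A, C and D and above N2 B.

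**Figure D3:**
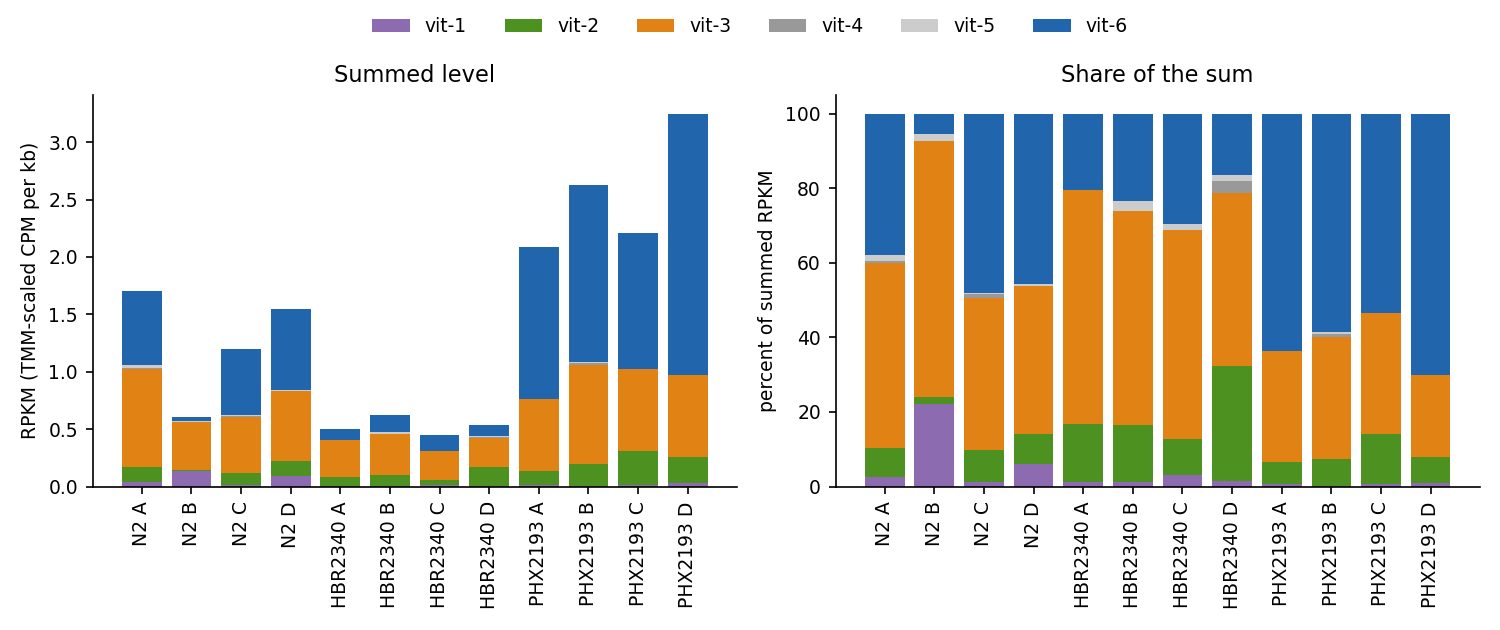
Left, RPKM of the 6 vitellogenin genes stacked for each of the 12 libraries. Right, the same as a percentage of the summed RPKM, in which vit-6 made up 61.5 ± 7.02% in PHX2193, 34.3 ± 19.6% in N2 and 22.5 ± 5.52% in HBR2340 (mean ± SD, n = 4 each). Without N2 B the N2 share was 43.8 ± 5.30% (n = 3).

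All members were low among protein-coding genes. The vit-6 mean was higher than that of 40.4% of 19984 protein-coding genes in PHX2193, of 29.5% in N2 and of 19.2% in HBR2340, on the RPKM scale. For vit-3 the percentages were 33.0%, 31.2% and 26.3% in the same order. The median protein-coding gene had 3.68, 3.70 and 3.46 RPKM in PHX2193, N2 and HBR2340, above the mean of every vitellogenin gene in every strain.

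Across the 12 libraries, Pearson's r of log2 CPM was 0.836 between vit-3 and vit-6, 0.762 between vit-2 and vit-6 and 0.519 between vit-2 and vit-3. After strain means were removed, r was 0.600, 0.742 and 0.550. The points share strain differences and the low counts of N2 B, and without N2 B the first 3 values were 0.915, 0.650 and 0.640. These are descriptions of the 12 libraries.

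The genes whose pattern over the 12 libraries was most like each tested member were taken by Pearson's r of log2 CPM among 11844 other genes. For vit-6 these were F16C3.3 (r = 0.988), cdt-2 (0.987) and uggt-2 (0.986). The level of uggt-2, which encodes a relative of the glucosyltransferases of glycoprotein folding, was 16.1 ± 9.62 CPM for N2, 5.52 ± 0.94 for HBR2340 and 39.4 ± 8.40 for PHX2193. For vit-3 they were C44F1.1 (0.972), fbxa-44 (0.967) and Y73F8A.35 (0.965). For vit-2 they were npp-5 (0.955), which encodes a nuclear pore protein, exos-2 (0.955), which encodes an exosome subunit, and abcf-1 (0.945). The 3 genes most like vit-2 passed in no comparison (edgeR adjusted p of 0.167 or more), and their likeness rests on libraries within strains (r of 0.942 to 0.948 after strain means were removed). Those most like vit-6 passed in PHX2193 against HBR2340 (edgeR adjusted p of at most 0.00372) but in neither comparison against N2 (0.0815 or more). Those most like vit-3 passed in HBR2340 against N2 (edgeR adjusted p of at most 0.0302) and in PHX2193 against HBR2340 (at most 0.00189). All were picked by likeness over these same libraries, strain differences included, so calls shared with a member are partly set by the choice. How far these r values rest on N2 B was not tested.

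Genes beside the vitellogenin genes were read as a check of the loci. Of 10 protein-coding neighbours outside the family, 7 were tested, and 3 of these were higher in PHX2193 than in HBR2340, against 10.1% of all genes. K07H8.7 (IV, 8259191 to 8260004) lies 1152 bp before the start of vit-6 on the other strand. It had 1.30, 0.227, 1.51 and 1.37 CPM in N2 A to D, 0.522, 0.351, 0.317 and 0.527 in HBR2340 A to D, and 2.27, 4.39, 2.36 and 5.08 in PHX2193 A to D. As for vit-6, PHX2193 was above all other libraries and N2 B was the lowest of all. PHX2193 was higher than HBR2340 by a log2 fold change of 3.03 ± 0.49 (edgeR adjusted p = 0.000910, and 1.81e-05 without N2 B). HBR2340 against N2 did not pass (−1.38, edgeR adjusted p = 0.113), and it passed without N2 B (−1.71 ± 0.34, edgeR adjusted p = 0.00456).

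T27A10.5 (X, 3572844 to 3573582) lies 294 bp before the start of vit-3 on the same strand. Its mean was 1.34 ± 0.58 CPM for N2, 0.597 ± 0.258 for HBR2340 and 2.03 ± 0.37 for PHX2193 (SD, n = 4 each). PHX2193 was higher than HBR2340 by 1.75 ± 0.38 on the log2 scale (edgeR adjusted p = 0.00610). HBR2340 against N2 did not pass (−1.16, edgeR adjusted p = 0.0895), and it passed without N2 B (−1.38 ± 0.34, edgeR adjusted p = 0.0147). Over the 12 libraries the log2 CPM of K07H8.7 and vit-6 had r = 0.963, and that of T27A10.5 and vit-3 had r = 0.956. After strain means were removed r was 0.875 and 0.865. The third was rgs-7 beside vit-4, which encodes a regulator of G protein signalling and was also lower in HBR2340 than in N2 (edgeR adjusted p = 0.0116), at 27.7 ± 1.98, 20.4 ± 1.51 and 27.1 ± 0.96 CPM in N2, HBR2340 and PHX2193. Neighbours of vit-2, acn-1 and C42D8.1, did not pass (edgeR adjusted p of 0.212 or more). Nor did spp-14 beside vit-1 or unc-78 beside vit-5 (edgeR adjusted p of 0.0962 or more). Without N2 B, unc-78 and C42D8.1 passed as higher in HBR2340 than in N2 (0.40 and 0.47, edgeR adjusted p = 0.0182 and 0.0273) and as lower in PHX2193 than in HBR2340 (−0.59 and −0.37, edgeR adjusted p = 0.000468 and 0.0329).

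**Figure D4:**
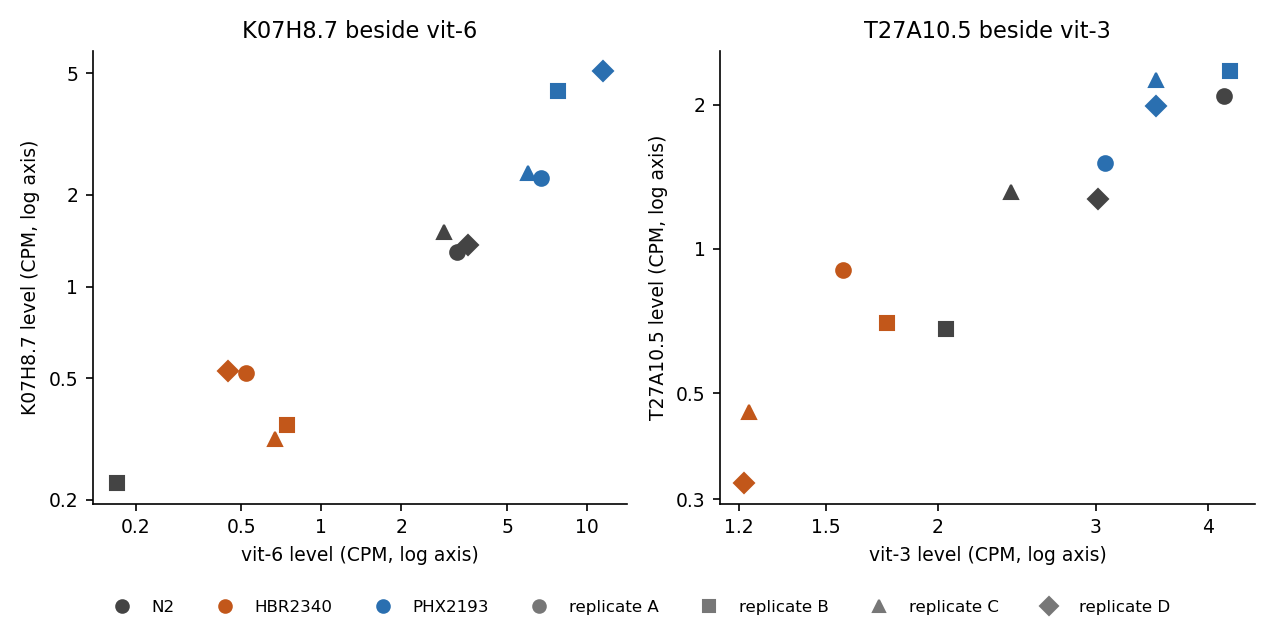
Level of 2 neighbouring genes (CPM, log axis) against the level of the vitellogenin gene beside them (CPM, log axis), with 1 point per library. HBR2340 libraries lie toward the lower left in both plots. PHX2193 libraries lie at the upper right in the vit-6 plot, while in the vit-3 plot N2 A lies among them. N2 B is the lowest point for vit-6 (0.170 CPM) and K07H8.7 (0.227 CPM).

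Known regulators of yolk genes were next. Of 9 tested, 1 was lower in HBR2340 than in N2 (4.03% of all genes) and 0 were called in PHX2193 against N2 (0.365%). In PHX2193 against HBR2340, 3 were higher (10.1% of all genes). The list medians were −0.29, 0.09 and 0.23 on the log2 scale. The GATA factor elt-2, needed for intestinal gene expression including that of yolk genes, fell from 12.8 ± 3.30 CPM in N2 to 6.81 ± 1.66 in HBR2340 (log2 fold change −0.91 ± 0.21, edgeR adjusted p = 0.0215). That call ended with only the 8 libraries compared and without N2 A, HBR2340 A or HBR2340 C (edgeR adjusted p of at most 0.0670). It became firmer without N2 B (−1.03 ± 0.21, edgeR adjusted p = 0.00468). PHX2193 had 14.9 ± 1.89 CPM of elt-2 and was higher than HBR2340 (1.13 ± 0.21, edgeR adjusted p = 0.00249).

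The zinc finger gene pqm-1, whose product regulates yolk genes in adults, was higher in PHX2193 (57.6 ± 9.99 CPM) than in HBR2340 (37.2 ± 6.29; 0.63 ± 0.15, edgeR adjusted p = 0.0112). So was lin-29, a zinc finger gene of the switch to adulthood (5.72 ± 1.15 against 2.66 ± 0.28 CPM; 1.10 ± 0.30, edgeR adjusted p = 0.0210), a call that ended without HBR2340 A, B or D or PHX2193 B or C. The homeodomain genes ceh-60 and unc-62, whose products act on yolk genes in the adult intestine, did not pass in any comparison, although unc-62 was called between both strains without N2 B, N2 D and PHX2193 D (edgeR adjusted p = 0.0201). The level of ceh-60 was 5.62 ± 1.82, 5.20 ± 0.98 and 4.88 ± 0.31 CPM, and that of unc-62 was 97.0 ± 13.3, 94.8 ± 6.30 and 103 ± 13.3 CPM, in N2, HBR2340 and PHX2193. Nor did mab-3, whose product holds yolk genes down in males (0.425 ± 0.096, 0.308 ± 0.106 and 0.422 ± 0.177 CPM).

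Insulin and TOR pathway genes act on yolk genes in adults. Of 11 tested, 3 were higher in HBR2340 than in N2 (3.34% of all genes) and 0 were called in PHX2193 against N2 (0.365%). In PHX2193 against HBR2340, 4 were lower (9.39% of all genes), with 7 not called. List medians were 0.22, 0.01 and −0.22. The kinase gene sgk-1, named after its values were seen, had a positive value in PHX2193 against HBR2340 (0.38, edgeR adjusted p = 0.0867). The kinase gene pdk-1 had 26.2 ± 9.14 CPM for N2, 45.7 ± 2.75 for HBR2340 and 17.8 ± 3.43 for PHX2193. PHX2193 was lower than HBR2340 by a log2 fold change of −1.36 ± 0.20 (edgeR adjusted p = 0.000527). The TORC2 gene rict-1 had 49.7 ± 2.98, 69.9 ± 1.86 and 50.5 ± 3.80 CPM, and HBR2340 was higher than N2 (0.49 ± 0.09, edgeR adjusted p = 0.00426). The kinase gene akt-1 had 160 ± 14.4, 221 ± 13.4 and 162 ± 20.1 CPM in N2, HBR2340 and PHX2193. The fourth gene lower in PHX2193 than in HBR2340 was akt-2 (−0.88 ± 0.26, edgeR adjusted p = 0.0287), named after its values were seen. The calls of pdk-1 and akt-1 against N2 (edgeR adjusted p = 0.0276 and 0.0254) each ended without N2 A, C or D or HBR2340 B, C or D. Both also ended with only the 8 libraries compared. That of pdk-1 ended without HBR2340 A too, and that of akt-1 with no filter on low counts. N2 B had 39.8 CPM of pdk-1 where N2 A, C and D had 20.7 to 22.7, and without N2 B the pdk-1 value against N2 was 1.06 ± 0.12 (edgeR adjusted p = 0.000139). Without N2 B, the akt-1 value against N2 was 0.51 ± 0.10 (edgeR adjusted p = 0.00412).

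Of 7 genes of the BMP-like pathway, which sets body size and acts on yolk production, 1 was lower in HBR2340 than in N2 (4.03% of all genes). None was called in PHX2193 against N2 (0.365% of all genes), and 1 was higher in PHX2193 than in HBR2340 (10.1%). The ligand gene dbl-1 had 41.8 ± 9.89 CPM in N2 and 28.2 ± 0.79 in HBR2340 (−0.56 ± 0.15, edgeR adjusted p = 0.0401). That call was lost when N2 A, N2 C, any HBR2340 library, PHX2193 A or PHX2193 B was left out, and with only the 8 libraries compared. It held without N2 B (−0.43 ± 0.12, edgeR adjusted p = 0.0256). The SMAD gene sma-2 had 62.4 ± 4.61 CPM in PHX2193 and 40.9 ± 7.06 in HBR2340 (0.61 ± 0.14, edgeR adjusted p = 0.00741). List medians were −0.09, −0.07 and −0.11.

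Of 5 genes of lipid loading and secretion, 0 were called against N2 in HBR2340 (7.37% of all genes) or in PHX2193 (0.365%). The 1 gene higher in PHX2193 than in HBR2340 (10.1% of all genes) was the secretory GTPase gene sar-1. It had 96.6 ± 6.91 against 71.4 ± 5.09 CPM (0.44 ± 0.13, edgeR adjusted p = 0.0341). The sar-1 call ended without HBR2340 A, C or D or PHX2193 A, B or C. The microsomal triglyceride transfer protein gene dsc-4 did not pass, at 50.8 ± 12.5, 45.0 ± 6.01 and 46.6 ± 1.29 CPM in N2, HBR2340 and PHX2193. List medians were −0.18, −0.12 and 0.05.

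Of 13 genes of yolk uptake and processing, 1 was lower in HBR2340 than in N2 and 2 were higher in PHX2193 than in HBR2340, counts near the shares of all genes (4.03% and 10.1%). None was called in PHX2193 against N2 by edgeR (0.365% of all genes), and list medians were −0.15, −0.06 and 0.07. The cathepsin L gene cpl-1, whose product processes yolk in embryos, had 291 ± 41.4 CPM for N2, 201 ± 7.67 for HBR2340 and 315 ± 37.5 for PHX2193. HBR2340 was lower than N2 (−0.53 ± 0.13, edgeR adjusted p = 0.0233), a call that ended without N2 A, HBR2340 B or HBR2340 D. PHX2193 was higher than HBR2340 (0.65 ± 0.13, edgeR adjusted p = 0.00312). The recycling gene rme-1 was also higher there (149 ± 11.3 against 111 ± 1.70 CPM; 0.42 ± 0.10, edgeR adjusted p = 0.00976). The yolk receptor gene rme-2, which oocytes express, had 3.50 ± 1.36, 2.66 ± 0.78 and 2.84 ± 2.03 CPM in N2, HBR2340 and PHX2193 and did not pass.

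Over these 5 lists, 45 genes were tested. None was called in PHX2193 against N2 by edgeR, where 0.365% of all genes were called. In that comparison 4 had an unadjusted p under 0.05 in edgeR, as held for 1845 of all 15908 genes tested, and DESeq2 called 1. Without N2 B, 11 of them were called in HBR2340 against N2, where 6 were with it, and calls among all genes rose from 7.37% to 17.7%. In PHX2193 against HBR2340 18 were called without N2 B, where 11 were with it, and calls among all genes rose from 19.5% to 32.9%. Among the genes named here, lin-29 and sma-2 were then also called lower in HBR2340 than in N2 (edgeR adjusted p = 0.00414 and 0.0173), and dbl-1 higher in PHX2193 than in HBR2340 (edgeR adjusted p = 0.0429).

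**Figure D5:**
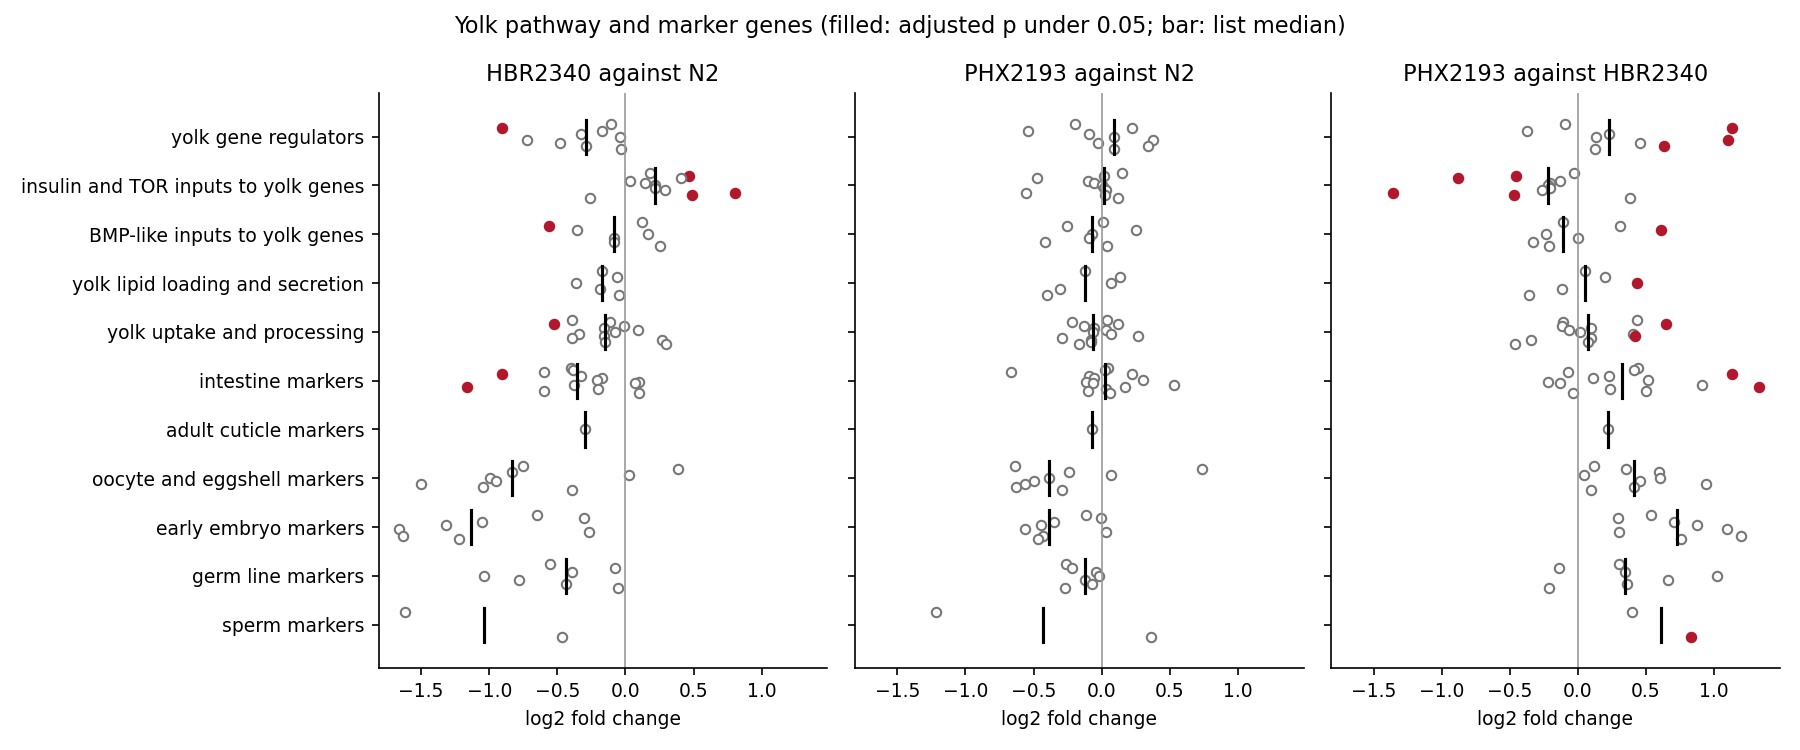
Log2 fold change (edgeR) of each tested gene of the yolk pathway and marker lists in the 3 comparisons. Filled points have an adjusted p under 0.05, open points do not, and bars are list medians. No point is filled in PHX2193 against N2.

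Markers of the tissues that make or take up yolk were set beside the vit-6 and vit-3 levels. Of 14 intestinal markers, 2 were lower in HBR2340 than in N2 (4.03% of all genes) and 2 were higher in PHX2193 than in HBR2340 (10.1% of all genes), in both cases elt-2 and nhx-2 (list medians −0.35, 0.03 and 0.32). The sodium-proton exchanger gene nhx-2 had 22.6 ± 1.59 CPM for N2, 10.1 ± 2.21 for HBR2340 and 25.4 ± 4.69 for PHX2193. HBR2340 was lower than N2 by −1.16 ± 0.17 on the log2 scale (edgeR adjusted p = 0.00174). The summed level of the 14 markers was 4173 to 6811 CPM in N2, 3250 to 5162 in HBR2340 and 5003 to 5312 in PHX2193, so the strains overlapped. It was highest in N2 B, the N2 library with the least vit-6, but asp-1 (4020 CPM) and ifb-2 (2051 CPM) made up most of it there. Of the markers, elt-2, ges-1, act-5, pept-1, mtl-2, vha-6, ifo-1 and pgp-1 were at their lowest for N2 in N2 B. There elt-7, asp-1, ifb-2, erm-1 and nhx-2 were at their highest for N2, and cpr-1 lay between. The part of intestinal RNA in the vitellogenin differences was not tested.

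Adult tissue was looked for because adults make vitellogenins in quantity. The 3 adult cuticle collagen genes col-7, col-19 and col-62 together had 0.284 to 1.10 CPM in N2, 0.174 to 0.809 in HBR2340 and 0.295 to 1.05 in PHX2193, with full overlap. Of these, col-62 was the one tested, at 0.399 ± 0.358, 0.347 ± 0.227 and 0.398 ± 0.226 CPM in N2, HBR2340 and PHX2193, and col-7 had 0 to 3 counts per library. Of 16 sperm markers in the table, 14 averaged fewer than 3 counts in each strain, and 2 were tested. Of these, spe-9 was higher in PHX2193 (4.60 ± 1.30 CPM) than in HBR2340 (2.59 ± 0.40), by 0.83 ± 0.23 (edgeR adjusted p = 0.0225). In this comparison 10.1% of all genes were called higher. The other, gsp-4, named after its values were seen, was not called there (0.40, edgeR adjusted p = 0.698). The spe-9 call ended without HBR2340 A or D or PHX2193 B or C.

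Markers of oocyte and eggshell (9 of 11 tested), early embryo (8 of 8) and germ line (7 of 7) had 0 genes called by edgeR in any comparison. Of all genes, 7.37% were called in HBR2340 against N2, 0.365% in PHX2193 against N2 and 19.5% in PHX2193 against HBR2340. The list medians of these markers in HBR2340 against N2 were −0.83, −1.14 and −0.44, and in PHX2193 against HBR2340 0.42, 0.73 and 0.35. The summed early embryo level was 205 CPM in N2 D against 32.8 to 39.2 in N2 A, B and C. It was 141.9 CPM in PHX2193 D against 36.7 to 51.1 in PHX2193 A, B and C, and 39.5 to 62.6 in HBR2340. The oocyte and eggshell sum was 52.6 CPM in N2 D and 36.9 in PHX2193 D, against 12.4 to 20.3 in all other libraries. The germ line sum was 74.0 CPM in N2 D and 76.8 in PHX2193 D, against 23.8 to 47.2 in the other 10. Those with the largest mean level were oma-2 (7.40 ± 4.35 CPM in N2) and cbd-1 (4.71 ± 2.72) for oocytes, mex-3 (32.3 ± 8.23) and pos-1 (16.001 ± 29.9) for embryos, and glh-1 (15.4 ± 4.68) and syp-1 (12.1 ± 0.79) for the germ line.

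PHX2193 D also had the highest vit-6 level of all, and N2 B the lowest. Leaving both out together with N2 D was chosen after seeing the data, and it narrows the vit-6 spread within N2 and PHX2193. It leaves N2 A and C and PHX2193 A, B and C beside all HBR2340 libraries. Calls among all genes also rose in each comparison, so the adjusted p-values below are not comparable with those of the full set. With N2 B, N2 D and PHX2193 D all left out, the vit-6 log2 fold change was 3.52 ± 0.20 in PHX2193 against HBR2340 (edgeR adjusted p = 7.88e-07). It was −2.37 ± 0.23 in HBR2340 against N2 (edgeR adjusted p = 7.66e-05) and 1.16 ± 0.22 in PHX2193 against N2 (edgeR adjusted p = 0.0364). For vit-3 the same set gave 1.34 ± 0.24 (edgeR adjusted p = 0.00139), −1.18 ± 0.27 (0.0112) and 0.15 ± 0.28 (0.890) in the same order.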

How the data were processed

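The authors deposited gene counts, whole numbers with no normalisation, for 46934 WormBase identifiers in 12 libraries. Reads were aligned with Bowtie 0.12.2, per the submitters' processing notes, which name the builds WBcel235 and mm8. The sources used here do not give the counting program, annotation release or strandedness. Symbols were found for 44113 identifiers, and positions came from Ensembl release 115 of WBcel235.

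The test was edgeR 4.0.16's quasi-likelihood test under R 4.3.3 with Benjamini-Hochberg adjustment. Genes entered if filterByExpr kept them (at strain level, with 10 as minimum count and 15 as minimum total), 15908 in all. TMM scaling and a robust quasi-likelihood model with 1 term per strain over all 12 libraries followed (9 residual degrees of freedom). Tests are two-sided. Log2 CPM used a prior count of 2. Fold change errors are the log2 fold change over the square root of F. The test was tested on simulated data. Floors and intervals cover counting error only. Depth was 23068345 to 34832403 counts per library, and even the closest replicates differed beyond counting error (chi-square over its degrees of freedom 14.5).

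The members and lists were chosen with earlier results of these data known. Named genes are all members, up to 3 called genes per list (or the 2 most abundant), 7 regulators and carriers always named, the 3 genes most like each member, and neighbours. Alternatives were DESeq2 1.42.0, its size factors in edgeR, no filter, 8 libraries, a replicate block and each library left out. Removal of N2 B, N2 D and PHX2193 D was added after seeing the data. The labels call the libraries biological replicates and say no more, so p-values measure the spread between these libraries. Whether libraries of the same letter were handled together is not stated, and the main test has no replicate block. Sequences, promoter motifs and the identity between copies were not analysed here.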

Additional observations from a re-analysis of the deposited data

Results flagged for a closer look

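In 24 sets of 4 libraries (the CPM of each member, the summed CPM and the ratio of vit-6 to vit-3), 3 had a library far from the other 3 of its strain. For continuous values chance gives about 1 in 20. These were vit-1 in HBR2340 C (0.0703 CPM, 2 counts, where the others had 1), vit-4 in HBR2340 D (0.0811 CPM, 2 counts, where the others had 0) and vit-4 in PHX2193 B (0.0902 CPM, 3 counts, where the others had 0). All are at or under 3 counts, where tied counts in the other libraries are enough to set off the rule. The rate of 1 in 20 does not apply to such sets. The vit-6 level of N2 B was not among them.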

How the results depend on the processing

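In HBR2340 against N2, 2 vitellogenin genes were called, and 0 were with only the 8 libraries compared or with the replicate block. Leaving out each library in turn gave 0 to 2. In PHX2193 against N2, 0 were called, 1 by DESeq2, 1 without N2 B, N2 D and PHX2193 D, and 0 to 1 with each library left out. In PHX2193 against HBR2340, 2 were called, 3 with only the 8 libraries compared, and 2 to 3 with each library left out. For the yolk pathway lists, the counts were 6, 0 and 11. With only the 8 libraries they were 2 in HBR2340 against N2 and 18 in PHX2193 against HBR2340, and without N2 B, N2 D and PHX2193 D they were 13 and 22. DESeq2 called 1 in PHX2193 against N2. Leaving out each library gave 1 to 11 in HBR2340 against N2 and 7 to 18 in PHX2193 against HBR2340.

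With the replicate block, vit-2 in HBR2340 against N2 changed sign (0.0246), and it ranged from −0.42 to 0.22 with each library left out. With the block, vit-3 and vit-6 missed the threshold there (edgeR adjusted p = 0.0558 and 0.113). Of 12 pairs of libraries with the same letter in 2 strains, 3 had deviations correlated above 0.1, as had 10 of 36 pairs with other letters. The highest r was 0.661, for N2 D with PHX2193 D, where pairs with other letters reached at most 0.372. These values do not settle whether the letters pair libraries, and the block is not part of the main test.

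Among all genes, HBR2340 against N2 had 1173 called, 1825 by DESeq2, 627 with 8 libraries, 3049 without N2 B, N2 D and PHX2193 D, and 661 to 2880 with each library left out. PHX2193 against N2 had 58, and 434, 3, 135 and 7 to 228, and 24 with the block. PHX2193 against HBR2340 had 3106, 5316 with 8 libraries, 5584 without the 3 libraries and 2237 to 5339. The cause was not tested. Depth limits vit-1, vit-4 and vit-5, with at most 14, 3 and 3 counts in a library.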
